A study of Mus musculus with 6 samples.

Results

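The plasminogen activator system was examined in mouse liver 1 day after bile duct ligation (BDL), through 7 genes: plasminogen (Plg), its activators Plat and Plau, the urokinase receptor Plaur, and the protease inhibitors Serpinf2, Serpina5 and Serpine2. These genes were chosen by name and function, with earlier results of the same arrays already known, and every probe set that the platform annotation assigns to them was taken. One further probe set, to which the annotation gives no gene, was selected by its ID. It is called the unnamed probe set here, and its ID is given with the processing steps. That gave 10 probe sets, 9 of them for 6 named genes, out of 12422 probe sets other than controls. Serpine2 carried no named probe set here and has no value below. Because of how they were picked, the differences of these members are descriptions with their errors, and no p-value is attached to any of them.

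Plasminogen is made by hepatocytes and circulates as an inactive precursor. Tissue-type plasminogen activator (Plat) acts mainly on fibrin, and urokinase (Plau) acts mainly at cell surfaces, where its receptor Plaur holds it; either one cuts plasminogen to plasmin, which dissolves fibrin and cleaves matrix proteins and growth factor precursors. Serpins check this chain at each step: some block the activators, and alpha-2-antiplasmin (Serpinf2) blocks plasmin itself. In the liver the system is known for clearing fibrin and remodelling matrix after injury.

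The BDL group was 3 wild-type male C57BL/6J mice in which the common bile duct had been tied and cut 1 day earlier under methoxyflurane anaesthesia, an operation that stops bile outflow. The sham group was 3 mice of the same strain and sex that had the abdomen opened under the same protocol and the duct left untied. All were 8 to 10 weeks old and weighed 22 to 26 g. Total liver RNA of each mouse was hybridised to its own Affymetrix U74Av2 array, and the titles number the mice 1, 12 and 3 for BDL and 1, 2 and 3 for sham.

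The values are the authors' linear signal intensities, with a 2% trimmed mean of 1501 on every array. Low signals were higher on 1 array, that of sham replicate 1, whose 10th percentile reached 135 while the remaining 5 arrays had 33.6 to 62.2. Differences below are on a log2 scale with every signal under 152.7 set to that value, which is the 25th percentile over the whole table and is called the floor. Albumin (Alb), the defining hepatocyte product, ranged from 147870 to 199675 in BDL, against 125084 to 170913 in sham. Of 9542 probe sets tested with limma, 0 (0%) had an adjusted p below 0.05. The lowest adjusted p was 0.667, and the unadjusted p was below 0.05 for 552. The 3 BDL values lay wholly above or wholly below the 3 sham values for 1015 of them, or 10.6%. Of the 8 member probe sets that were tested, 0 passed and 1 had groups that did not overlap, and this was the unnamed one. The other 2, for Plaur and the second Serpina5 probe set, exceeded the floor on only 1 of 6 arrays and were not tested. The number of arrays limits the precision of every value.

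**Figure D1:**
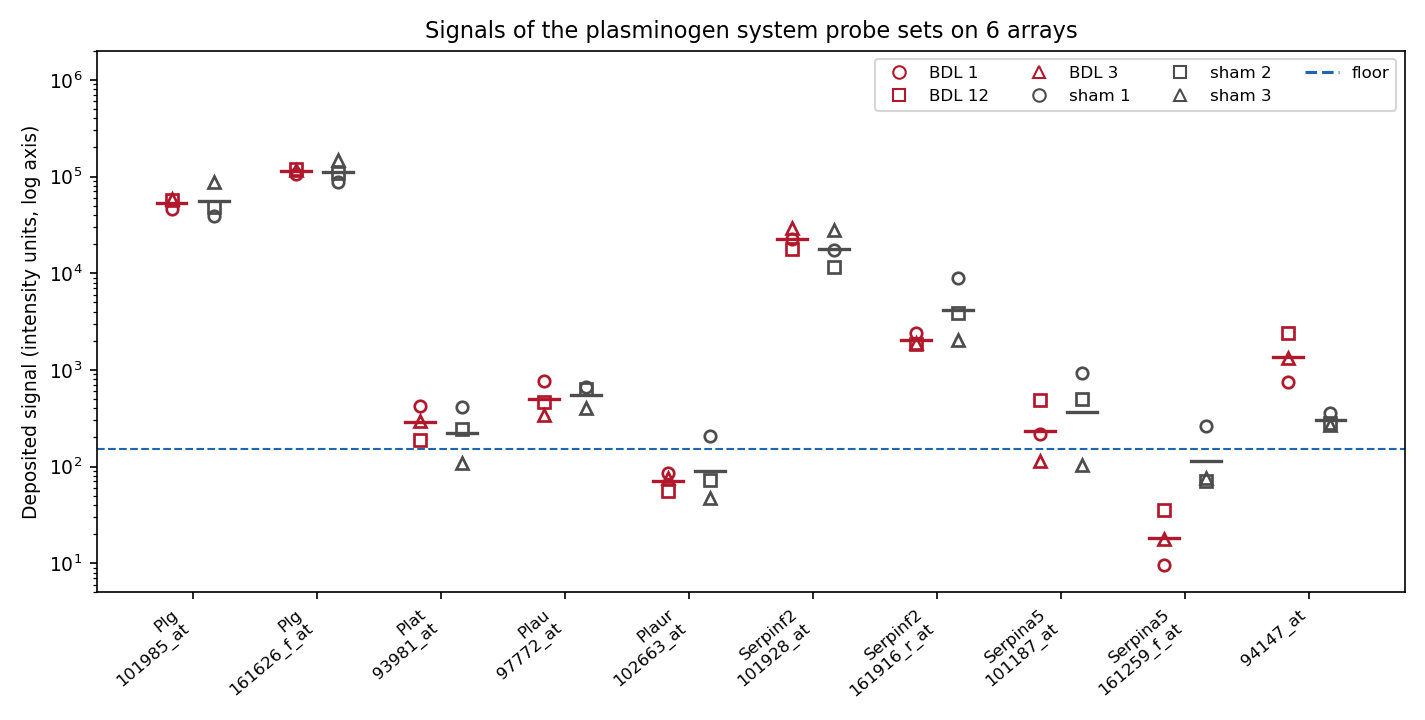
Deposited signal of each of the 10 member probe sets (log axis, intensity units) on the 3 BDL arrays (red, left of each pair) and the 3 sham arrays (grey, right), with a bar at each group's geometric mean of the deposited values and a dashed line at the floor of 152.7. The Plg signals lie between 39284 and 149707, those of Plaur lie under the floor on 5 of 6 arrays, and the groups are apart and above the floor only for the unnamed probe set, labelled by its ID at the right.

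Plasminogen messenger RNA was abundant on every array, and its group means were close. The probe set 101985_at gave signals of 46076, 57304 and 58797 in BDL replicates 1, 12 and 3, against 39284, 48962 and 87321 in sham replicates 1, 2 and 3. The sham mice held both the lowest and the highest value, so the groups overlapped completely. Means were 54059 ± 6954 in BDL and 58522 ± 25405 in sham (SD, n = 3 each), and the log2 difference, BDL minus sham, was -0.04 with a 95% interval of -0.86 to 0.78. A second Plg probe set, 161626_f_at, gave 107345, 120782 and 117270 in BDL and 87870, 108148 and 149707 in sham. The ordering of the arrays was the same as on the first probe set apart from BDL replicates 12 and 3, which changed places. Its log2 difference was 0.03, with an interval of -0.66 to 0.73. Both intervals reach at least 0.66 on the log2 scale in either direction, so equal levels were not shown. The highest sham signal was 2.22 times the lowest on 101985_at, whereas in BDL that ratio was 1.28. Without sham replicate 3 the 2 differences were 0.29 and 0.24, and without sham replicate 1 they were -0.28 and -0.15.

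Tissue-type plasminogen activator was measured near the floor. Plat (93981_at) had signals of 423, 188 and 298 in BDL replicates 1, 12 and 3, against 414, 245 and 109 in sham replicates 1, 2 and 3. BDL replicate 1 and sham replicate 1 were almost level at the top, sham replicate 3 was under the floor, and the groups overlapped. Group means were 303 ± 118 in BDL and 256 ± 153 in sham (SD, n = 3 each). The log2 difference was 0.20 (SE 0.45), with an interval of -0.82 to 1.22. Leaving out sham replicate 3 gave -0.15, leaving out BDL replicate 1 gave -0.08, and leaving out sham replicate 1 gave 0.57, so the direction hung on single arrays. Plat is known as a product of endothelial cells, and the endothelial markers were measured beside it. Over the 11 of 12 listed endothelial markers with a named probe set, the summed signal was 8124 to 10423 in BDL and 5132 to 9634 in sham. The largest part of each sum was Eng, at 5220, 3791 and 5600 in BDL, against 2961, 4650 and 2629 in sham. The median log2 difference of the tested markers was 0.32, and it was 0.06 without BDL replicate 1. Of the 10 tested, 8 had a positive difference. Groups were apart for 1 of them, beside 10.6% of all tested probe sets. It was Fcgr2b, an inhibitory Fc receptor of sinusoidal endothelium, at 1.29 (SE 0.33). The part of the endothelial cells in the Plat values was not tested. In whole liver a change in the number of cells of a type and one in RNA per cell cannot be told apart.

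Urokinase stood above the floor on all arrays. Plau (97772_at) had signals of 759, 462 and 345 in BDL replicates 1, 12 and 3, against 663, 634 and 407 in sham replicates 1, 2 and 3. The BDL mice held both extremes and the groups overlapped. Group means were 522 ± 213 in BDL and 568 ± 140 in sham (SD, n = 3 each). The log2 difference was -0.17 (SE 0.38), with an interval of -1.03 to 0.69, and leaving out BDL replicate 3 or BDL replicate 1 gave 0.09 or -0.48.

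The urokinase receptor could not be read at these signals. Plaur (102663_at) had 86.0, 55.4 and 76.9 in BDL, against 205, 72.4 and 47.5 in sham. Only sham replicate 1 exceeded the floor, and that array had raised low signals throughout. All 3 BDL values lay within the range of the sham values, and no fold is given because every BDL signal was under the floor. Plaur is known from myeloid cells, whose markers were detected on the same arrays. The summed signal of the 9 of 10 listed macrophage and Kupffer cell markers with a named probe set was 13439, 37938 and 27955 in BDL replicates 1, 12 and 3, against 9517, 12913 and 6661 in sham replicates 1, 2 and 3. These sums did not overlap, although 0 of the 8 tested markers had groups apart. Cd14, the endotoxin co-receptor, made up most of the BDL excess at 1873, 29692 and 15816 in BDL, against 717, 4568 and 1176 in sham. Without Cd14, a step chosen after the values were seen, the sums were 11566, 8246 and 12138 in BDL and 8801, 8345 and 5485 in sham, and they overlapped.

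The plasmin inhibitor gave probe sets that disagreed in direction. Alpha-2-antiplasmin, Serpinf2, had signals of 22381, 17674 and 29105 in BDL replicates 1, 12 and 3 on 101928_at, against 17455, 11696 and 27681 in sham replicates 1, 2 and 3. Within each group replicate 3 was the highest, and the groups overlapped. Signals averaged 23053 ± 5745 in BDL, against 18944 ± 8096 in sham (SD, n = 3 each), and the log2 difference was 0.34 (SE 0.39) with an interval of -0.53 to 1.22. Leaving out each array in turn gave 0.04 without sham replicate 2 to 0.66 without sham replicate 3.

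The other Serpinf2 probe set, 161916_r_at, had signals of 2427, 1873 and 1909 in BDL, against 8952, 3885 and 2058 in sham. BDL values were close together and sham values spread widely, and BDL replicate 1 lay above sham replicate 3. The log2 difference was -1.01 (SE 0.50), with an interval of -2.15 to 0.12, and leaving out sham replicate 1 or sham replicate 3 gave -0.46 or -1.52. On this platform the suffix r marks a probe set whose probes did not meet all selection rules, and the suffix f one whose probes match a family of similar sequences. The cause of the disagreement was not tested.

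Protein C inhibitor, Serpina5, acts on urokinase and on activated protein C. Its probe set 101187_at had signals of 217, 493 and 114 in BDL replicates 1, 12 and 3, against 937, 494 and 104 in sham replicates 1, 2 and 3. BDL replicate 12 and sham replicate 2 were level, replicate 3 of each group was under the floor, and the groups overlapped. Means were 275 ± 196 in BDL and 512 ± 417 in sham (SD, n = 3 each). The log2 difference of -0.70 (SE 0.67) had the widest interval of the members, -2.24 to 0.83, and it was -0.11 without sham replicate 1.

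A second Serpina5 probe set, 161259_f_at, had deposited signals of 9.60, 35.5 and 17.6 in BDL and 265, 71.5 and 76.5 in sham. All BDL values lay below all sham values as deposited, but only sham replicate 1 exceeded the floor, so both groups were at or near the level where low signals cannot be ordered. The groups counted as apart once the floor was lowered to 51.6, the 10th percentile of all values. Every BDL signal lay under that floor and every sham signal above it. The probe set thus passed the filter through the sham arrays alone, and being apart followed from this and supports nothing.

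The unnamed probe set had the largest difference among the members. Its signals were 757, 2385 and 1342 in BDL replicates 1, 12 and 3, against 361, 282 and 272 in sham replicates 1, 2 and 3. All BDL values lay above all sham values, and the lowest BDL signal was 2.10 times the highest sham signal. Means were 1495 ± 824 in BDL and 305 ± 48.9 in sham (SD, n = 3 each). The log2 difference was 2.15 (SE 0.43, interval 1.18 to 3.12), 4.44-fold higher in BDL by geometric means. By size it ranked 10th among the 9542 tested probe sets, a rank that describes the probe set and supports nothing, since the probe set was singled out with such values known. Leaving out each array in turn gave differences of 1.74 without BDL replicate 12 to 2.56 without BDL replicate 1, and the signal after adding a constant in place of the floor gave 1.73. The BDL mice differed more among themselves, with the highest signal 3.15 times the lowest, than the sham mice, in which that ratio was 1.33. The order of the BDL mice, with replicate 12 highest and replicate 1 lowest, was also that of Cd14, whose part in the signal of the unnamed probe set was not tested. Fgb, Fgg and Plg on 161626_f_at shared this order too, so it is not particular to Cd14. The macrophage marker sum had this order with Cd14 in it, whereas without Cd14 the sum was lowest in BDL replicate 12.

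**Figure D2:**
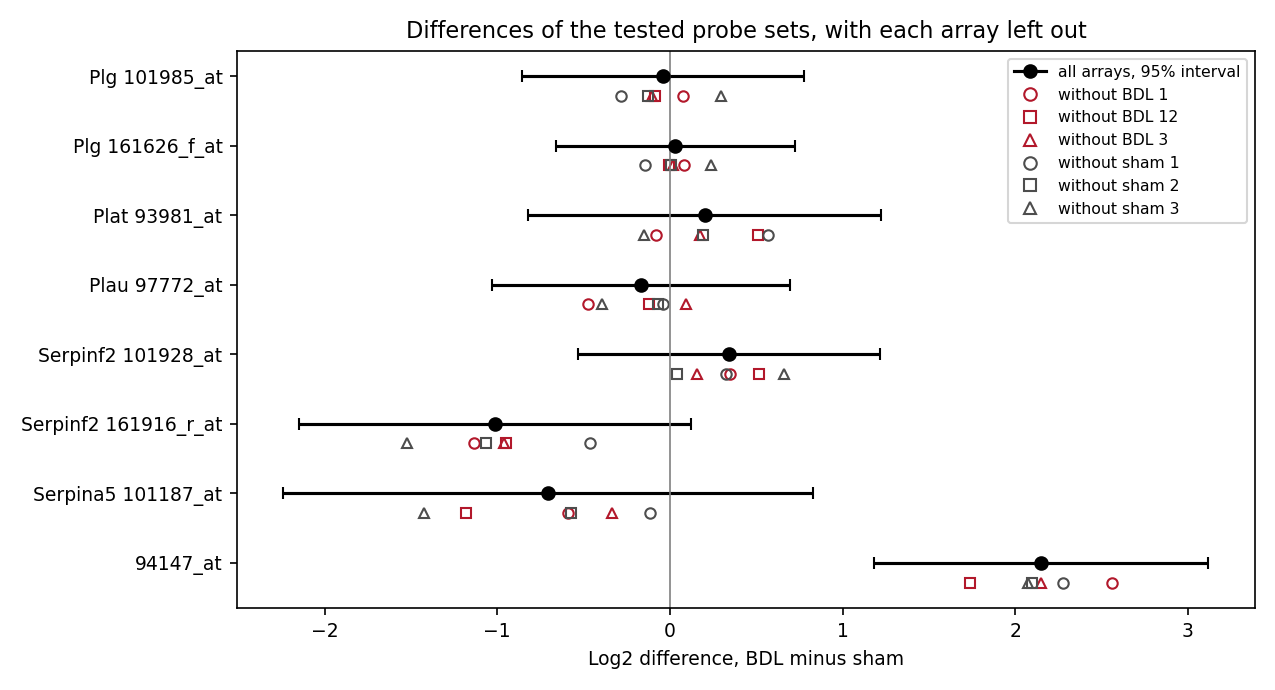
Log2 difference, BDL minus sham, of each of the 8 tested member probe sets (black points) with limma's 95% interval (bars), and below each the same difference with each of the 6 arrays left out (open symbols, red for a BDL and grey for a sham array). The interval of the unnamed probe set, labelled by its ID, runs from 1.18 to 3.12, and the intervals of the other 7 hold 0. The members were picked with earlier results of these arrays known, so the intervals describe and test nothing.

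The sham group was the more variable one for most of the members. The SD of log2 signal was larger in sham than in BDL for 6 of the 8 tested member probe sets, beside 64.2% of all 9542, so the members followed the series in this. Plau and the unnamed probe set were the exceptions. Setting the like-numbered mice side by side, with BDL replicate 12 beside sham replicate 2 by a choice made after the values were seen, 3 of the 8 differed with 1 sign throughout, beside 30.3% of all tested probe sets. These were the unnamed probe set and Serpinf2 101928_at with positive differences and Serpinf2 161916_r_at with negative ones, and whether the numbers mark pairs is not known. The median difference of the 8 was -0.003 on the log2 scale, beside -0.01 for all tested probe sets, and 4 of the 8 were positive.

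Other genes that bind, protect or clear parts of the plasminogen system, or relate to its targets, were described as a list of 37. Of these, 34 had a named probe set and 30 were tested. Of these 30, 0 passed the adjusted threshold, and the unadjusted limma p was below 0.05 for 1 gene with a positive and 0 with a negative difference. In all, 15 had a positive difference, and the median difference was -0.03. Groups were apart for 1 higher and 1 lower gene, 6.67% of the 30, which is below the 10.6% of all tested probe sets.

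The list of plasminogen-binding proteins and cell surface cofactors had positive differences for 4 of 5 tested genes, with a median of 0.53. The smallest of the 4 was Vtn at 0.06 (SE 0.33). With the floor at the 40th percentile the median was 0.17. Annexin A2 (Anxa2), which forms a complex that holds plasminogen and tissue-type activator on cells, had signals of 1968, 1458 and 3125 in BDL, against 1530, 834 and 831 in sham. BDL replicate 12 lay below sham replicate 1, so the groups overlapped, and the log2 difference was 1.03 (SE 0.39). Its partner in that complex, S100a10, had 22871, 18200 and 21013 in BDL, against 11802, 17635 and 9837 in sham. All BDL values were above all sham values, the closest pair being BDL replicate 12 and sham replicate 2, and the difference was 0.70 (SE 0.32). A second S100a10 probe set, 162340_r_at, differed by 0.52, with 780 to 982 in BDL and 556 to 694 in sham. The limma adjusted p over all probe sets was 0.832 for both Anxa2 and S100a10.

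Among the 4 tested genes of the fibrin substrate, Fgb and Fgg, which encode fibrinogen chains, had differences of 0.44 (SE 0.50) and 0.37 (SE 0.44) with overlapping groups. Fgb ranged from 20501 to 64188 in BDL and from 19634 to 47322 in sham. Of the contact system, plasma kallikrein (Klkb1) differed by -0.20 (SE 0.80) and factor XII (F12) by 0.08 (SE 0.37). Klkb1 varied widely inside both groups, with 959, 363 and 2367 in BDL replicates 1, 12 and 3, against 1177, 401 and 2665 in sham replicates 1, 2 and 3.

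Of the other protease inhibitors, antithrombin (Serpinc1) differed by 0.22 (SE 0.32) and neuroserpin (Serpini1), an inhibitor of tissue-type activator, by -0.30 (SE 0.38). The 6 inhibitors had a median of 0.05 and 3 positive differences. Receptors that clear activator complexes had 1 positive difference of 5. The chaperone of the low density lipoprotein receptor family, Lrpap1, differed by -0.33 (SE 0.31), and Vldlr by -0.47 (SE 0.37), with 3 of 6 Vldlr arrays at the floor. Second probe sets gave -1.05 (SE 0.46) for Lrpap1, on 161988_f_at, and 0.04 (SE 0.32) for Vldlr, on 96534_at, so the Vldlr pair disagreed in sign. Both were near the floor, with only 1 BDL array above it on 161988_f_at and 3 of 6 arrays above it on 96534_at. In the list of targets of plasmin and the activators and of genes related to these targets, 2 of 7 tested genes were positive. Hgfac, the protease that activates hepatocyte growth factor, had signals of 6458, 7059 and 6579 in BDL, against 7431, 8857 and 11295 in sham. All BDL values lay below all sham values, and the difference was -0.44 (SE 0.29, limma adjusted p = 0.834). Mmp3, a matrix protease, differed by 0.33 (SE 0.30) at signals near the floor, and by 0.90 with the floor at the 10th percentile.

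**Figure D3:**
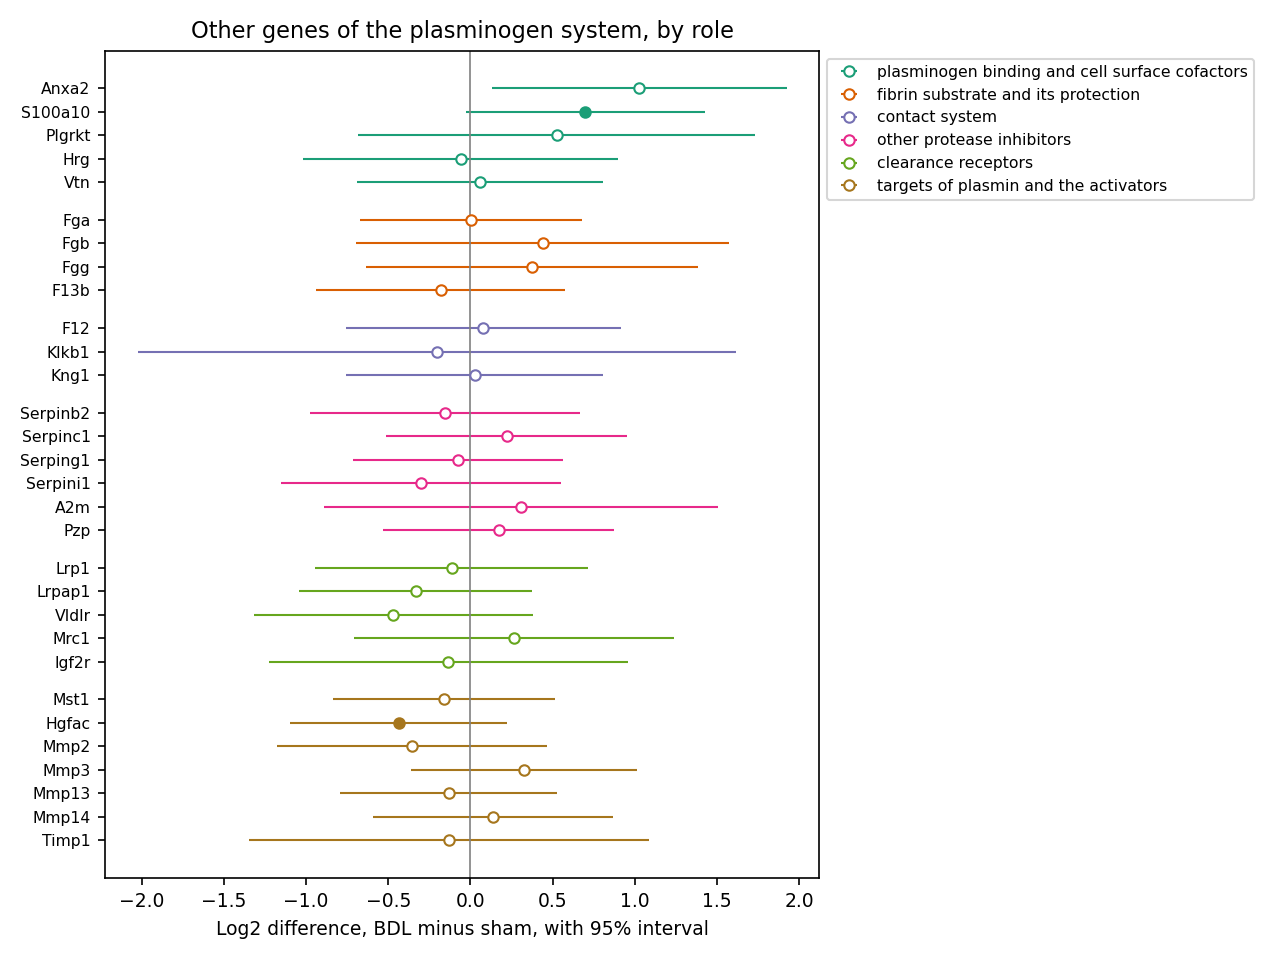
Log2 difference, BDL minus sham, with limma's 95% interval for the 30 tested genes of the pathway list, grouped by role; a filled point marks a gene whose 3 BDL values do not overlap the 3 sham values. S100a10 at 0.70 and Hgfac at -0.44 are the 2 filled points.

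The genes with the most similar profile over the 6 arrays were sought for the 3 members whose log2 signal varied most. Each named member was taken by its probe set of highest average log2 signal. Serpinf2 161916_r_at was therefore not considered, although its SD of 0.88 exceeded the 0.60 of Plat. Candidates were 6133 named genes at the floor on no more than 1 array. Similarity was the root mean square of the differences between log2 signals, each centred on its own mean. For the unnamed probe set the nearest was Plscr1, a phospholipid scramblase, at 0.24, followed by Bmyc at 0.45 and Denn2b at 0.47. Plscr1 had signals of 2233, 7740 and 4874 in BDL, against 1367, 1423 and 937 in sham. Like the unnamed probe set it was highest in BDL replicate 12 and lowest in sham replicate 3.

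For Serpina5 the nearest were Rps13 at 0.27, a probe set with the suffix r, the pancreatic colipase Clps at 0.28 and Vav1 at 0.30, a signalling protein of blood cells. Rps13 had 233, 443 and 224 in BDL and 1326, 488 and 198 in sham, highest in sham replicate 1 as Serpina5 was. For Plat they were Snx5 at 0.12, Gm10046 at 0.17 and Tuba1c at 0.18. Snx5 had 1031, 501 and 607 in BDL and 1041, 609 and 388 in sham, so its top arrays were replicate 1 of each group, as for Plat. With 6 arrays and 6133 candidates, a close profile describes these arrays only.

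**Figure D4:**
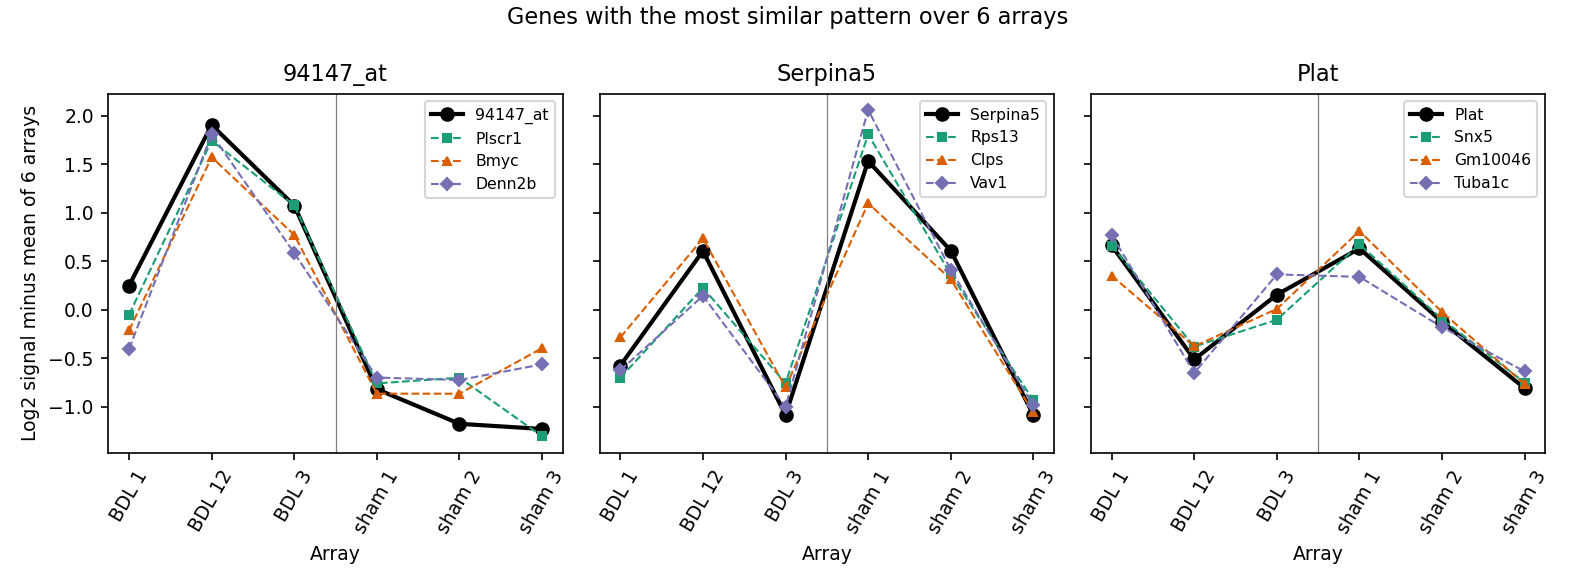
Log2 signal of the unnamed probe set (titled by its ID), Serpina5 (101187_at) and Plat (black) and of the 3 genes nearest to each (coloured), centred on each gene's mean over 6 arrays, with the BDL arrays left and the sham arrays right of the grey line. The profile of the unnamed probe set peaks in BDL replicate 12, that of Serpina5 in sham replicate 1, and that of Plat is near its top in replicate 1 of both groups.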

How the data were processed

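Each mouse's 20 µg of cRNA was hybridised to 1 U74Av2 array. The authors summarised the deposited intensity values with Affymetrix software, GeneChip version 3.1 and MicroArray Suite version 4.0, per the series' design text. How they scaled the arrays and called detection is not given in the sources used here. Trimmed means within 5% of each other were taken as already normalised. Signals were raised to the floor, log2 was taken, and probe sets above it on at least 3 of 6 arrays were tested: 9542, with 66 controls and 2880 dim ones left out. BDL minus sham was fitted across all probe sets with limma 3.58.1 in R 4.3.3 (lmFit, eBayes, Benjamini-Hochberg), and checked on simulated data. That check changed only probe sets well above the floor. It does not cover signals as low as those of Plat, Plau, Serpina5 and the unnamed probe set. SE and 95% intervals are moderated. The floor understates differences of low signals.

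Gene names come from the platform's annotation, brought up to date through the gene IDs of RefSeq, GRCm38.p6 (10833 with 1 symbol, 396 with several, 1193 with none). Each gene outside the members has 1 probe set, that of highest average log2 signal. The same rule chose 1 probe set per named member in the search for similar profiles. The unnamed member is probe set 94147_at.

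The members and all lists were chosen with earlier results of these data known. Named are all members, the 2 genes of each role group with the lowest p, the nearest profiles, and cell type markers, single ones of which were picked after their values were seen. Alternatives were quantile normalisation, floors at the 10th and 40th percentile, a constant added in place of the floor, testing every probe set, a stricter filter (50th percentile), limma's trend in variance, each array left out, a replicate block, and that block with 12 read as 2, added after seeing the data. The labels name no batch.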

Additional observations from a re-analysis of the deposited data

How the results depend on the processing

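Each result was recomputed under 15 alternatives, or 13 or 14 where a stricter filter or a higher floor left a probe set untested. The count past the adjusted threshold was 0 under each of them except without the filter, where it was 3: Anxa3, Myc and Ate1, named after their values were seen, each at the floor in all 3 sham mice, where the floor sets the spread to 0. With the filter at the 50th percentile, which tests fewer probe sets, 362 had an unadjusted p below 0.05. With an array left out and the usual filter, the number ranged from 308 without BDL replicate 3 to 1176 without sham replicate 3. Non-overlapping groups numbered 1565 to 2872 with an array left out, since 3 against 2 arrays part more easily. The difference of the unnamed probe set ran over the 15 from 1.69 with the replicate block to 2.56 without BDL replicate 1. Its groups do not overlap, so leaving out an array or adding a block could not turn its sign. Filter and variance settings leave a difference as it was. Its constant sign therefore supports nothing. Both Serpinf2 probe sets and Serpina5 kept their signs, whereas Plg changed sign under 2 alternatives on 101985_at and 4 on 161626_f_at, Plat under 2 and Plau under 1.

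Only replicate numbers 1 and 3 occur in both groups, and whether the title number 12 stands for 2 is not known, so the numbers were not taken as pairs. Deviations from the group means correlated at 0.21 between the mice numbered 1, at 0.25 between those numbered 3 and at 0.29 between BDL replicate 12 and sham replicate 2. The other 6 combinations were below 0. The 3 deviations of a group sum to 0, so the third value is not independent of the others. With the replicate block, in which only the mice numbered 1 and 3 inform a difference, 651 probe sets had an unadjusted p under 0.05 and 0 passed. With 12 taken as 2, an alternative chosen after seeing the data, these counts were 844 and 0, and no difference changed in size. Lrpap1, at -0.33 without the block, had a difference of 0.003 with the replicate block of numbers 1 and 3. The floor limits what can be said of Plaur and of 161259_f_at.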

Other observations

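Markers of other cells that a whole liver sample holds were measured beside the members. Lymphocyte markers had a median log2 difference of -0.77 over 5 tested genes, 1 of them positive, and their signals summed to 2134 to 2821 in BDL, against 2483 to 7637 in sham, the highest in sham replicate 1. Ms4a1, the B-cell antigen CD20, had groups apart at 740 to 951 in BDL and 1399 to 1534 in sham. Without sham replicate 1 the lymphocyte median was -0.27. Platelet markers were of interest because platelets carry inhibitors of plasminogen activation. Over 4 genes they summed to 626 to 815 in BDL and 411 to 2114 in sham, the highest in sham replicate 1. Their median was -0.63 over the 3 tested, 1 of which, Gp9, was under the floor in all 3 BDL mice. That median was -0.24 without sham replicate 1 and -0.23 with the floor at the 10th percentile.

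Neutrophil markers had a median of -0.16 over 9 tested genes, 2 of them positive, and the median was 0.14 after quantile normalisation and 0.10 without sham replicate 1. Groups were apart for Camp, a granule antimicrobial peptide, at 727, 678 and 709 in BDL, against 1410, 1176 and 732 in sham. Among the positive ones S100a9, an alarmin of neutrophils, had 585, 304 and 1782 in BDL, against 192, 239 and 311 in sham. BDL replicate 12 lay inside the sham range, so the groups overlapped. Stellate and mesenchymal markers had a median of 0.08 over 8 tested genes, cholangiocyte markers 0.13 over 3, and hepatocyte markers 0.17 over 8. In the last list Ttr, the carrier transthyretin, had groups apart at 3576 to 4824 in BDL and 6456 to 14576 in sham, against a positive difference for 6 of the 8. Of the 8 tested stellate and mesenchymal markers 4 had a positive difference. Among these Acta2 had groups apart at 209 to 486 in BDL and 23.6 to 192 in sham, with only 1 sham array above the floor. Groups were also apart for the platelet marker Gp9. Of all tested probe sets 10.6% had groups apart, so the single markers named here are descriptions. No marker in these lists passed the adjusted threshold in limma.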
